A study of Homo sapiens with 10 samples.

Results

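The circadian clock genes PER2, PER3, CRY1, CRY2, NR1D1, NR1D2, DBP, CIART, CLOCK and TEF were followed through the differentiation of human thyroid organoids. The 10 genes were taken by symbol from the deposited count files, which list 28265 gene symbols, and all 10 had at least 5 counts in at least 2 libraries, as did 21014 genes in all. RNA was sequenced from 10000 sorted NKX2-1GFP+ cells per library, with 2 libraries at each of days 16, 23, 31, 38 and 45. The cells derive from the human embryonic stem cell line ESIBIe003-A-6, in which GFP sits in one NKX2-1 allele and a doxycycline-inducible transgene carries NKX2-1 and PAX8, and every group shares this genotype and the early doxycycline pulse. Day 16 cells had been kept in basal differentiation medium, although their label names cAMP. Day 23 and day 31 cells had received the cAMP analogue 8-br-cAMP, day 38 cells recombinant TSH with dexamethasone, a synthetic glucocorticoid, and day 45 cells the same with the TGFβ inhibitor SB431542 added, of which the label names TSH and SB. Day 31 was taken as a cAMP day from its label, although the schedule in the methods places the change of medium just before it. All libraries come from this 1 line, selected after lentiviral infection, and wells were pooled for each sample. Each medium was sampled at its own days, so medium and time in culture cannot be told apart. Samples kept in cAMP to the last days were not analysed here. Counted totals ran from 7247268 to 10333933 per library.

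The clock is a loop of transcription factors present in nearly all cell types. CLOCK pairs with BMAL1 and drives genes through E-box sequences, among them the PER and CRY genes, whose proteins return to the nucleus and repress the pair. NR1D1 and NR1D2 (REV-ERBα and β) repress BMAL1, CIART is a further repressor of the CLOCK complex, and DBP and TEF are PAR bZIP factors that pass the rhythm on through D-box sequences. Glucocorticoids and cAMP can both reset the clock of cultured cells. Cells were taken once a week, so a cycle of about a day was not sampled, and the hour of harvest and the time since the last change of medium are not given in the sources used here. Values are therefore levels at 5 days, and neither phase nor amplitude can be read from them.

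All 10 genes had a promoter window in RefSeq (GRCh38.p14), which runs from 250 bases before to 50 bases after a transcript start. Both strands of each window were searched for the E-box CACGTG, the variant E-box CACGTT and the D-box TTATGTAA or TTACGTAA, and no match of one motif overlapped a match of another. CACGTG was found in the windows of CIART and TEF, 2 of 10, and in 7.43% of the 27305 windows of all genes. CACGTT was found for PER2, CRY1 and NR1D1, 3 of 10 against 5.27% of all windows. The D-box was found for PER2 and PER3, 2 of 10 against 1.05%. The element TAGGTCA, which NR1D1 and NR1D2 bind, occurred in 1.87% of all windows and the cAMP response element TGACGTCA in 1.98%, and neither was in the windows of the 10 genes. The shorter TGACG, which is contained in the full element, was in the windows of PER2, CRY1, CRY2, NR1D2 and CLOCK, 5 of 10 against 25.0% of all windows. These matches describe the letters of 300 bases per gene, and no binding was measured. The matched stretches are shown because the loop is known to act through elements of these kinds, and whether these sites act was not tested. The motif is in capitals, and each stretch is read 5′ to 3′ on the strand of its gene.
CIART, chr1:150282405-150282450, plus strand: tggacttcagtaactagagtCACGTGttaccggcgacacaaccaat
CIART, chr1:150282463-150282522, plus strand: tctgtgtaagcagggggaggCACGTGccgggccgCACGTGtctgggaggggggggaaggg
TEF, chr22:41367240-41367285, plus strand: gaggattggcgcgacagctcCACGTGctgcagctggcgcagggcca
PER2, chr2:238288792-238288817, minus strand: cgcgcgcggtCACGTTttccactatg
CRY1, chr12:107093613-107093658, minus strand: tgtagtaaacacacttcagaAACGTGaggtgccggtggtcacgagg
NR1D1, chr17:40100732-40100777, minus strand: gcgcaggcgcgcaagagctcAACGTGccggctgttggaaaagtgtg
PER2, chr2:238288606-238288623, minus strand: ccgctgcggcTTACGTAA
PER3, chr1:7784094-7784141, plus strand: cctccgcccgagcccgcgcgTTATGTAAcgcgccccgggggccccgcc
CIART alone held 3 E-boxes, which began 129, 71 and 57 bases before its start. In CRY1 and NR1D1 the variant E-box lies on the opposite strand and reads AACGTG. By GENCODE 44 the stretches of CIART, TEF, CRY1, NR1D1 and PER3 lie upstream of their gene, that of CRY1 inside the long noncoding RNA gene ENSG00000257548. Both PER2 stretches lie in an exon of a longer PER2 transcript.

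Levels were expressed as CPM, the counts of a gene scaled to a common library total, after TMM scaling, which corrects library size for differences in composition. The quasi-likelihood test of edgeR was run over all 21014 genes, with Benjamini-Hochberg (BH) adjustment and a threshold of 0.05, and a gene that passed is called. Of the 10 genes, 5 were called for a difference between any of the 5 days (PER2, PER3, CRY1, NR1D2 and CIART), against 36.3% of all genes tested. The median range between the highest and the lowest day mean was 0.84 on the log2 scale over the 10 genes and 1.31 over all genes tested. The median SD within a day, pooled over the 5 days, was 0.27 and 0.40. The clock genes and all genes were not matched for expression level in these medians. PER3 was lowest in the cAMP days and highest at day 38, CRY1 stood apart at day 45, and CLOCK, NR1D1, DBP and TEF were not called in any comparison. In bulk RNA, fewer cells that express a gene and less RNA per cell cannot be told apart.

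**Figure D1:**
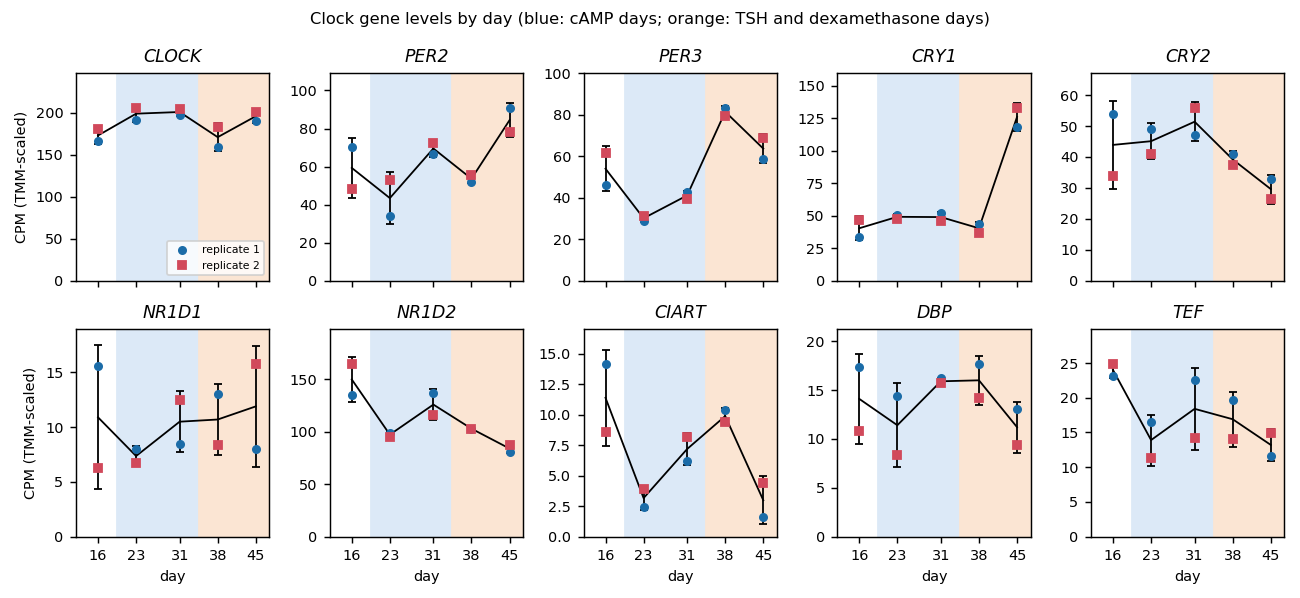
CPM (vertical axes from 0, one scale per gene) of the 10 clock genes by day (horizontal axes), with both libraries of each day as points and a line through the day means with the SD (n = 2). PER3 peaks at day 38 and CRY1 at day 45, while the libraries of NR1D1 lie as far apart within day 16 as across days.

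Per kilobase of exon, averaged over the 10 libraries, the order of levels was NR1D2 (19.3 CPM per kb), CLOCK (16.3), CRY1 (12.7), PER2 (8.75), CRY2 (6.75), PER3 (6.65), NR1D1 (3.91), TEF (3.68), CIART (2.43) and DBP (2.12). NR1D2 was thus above its paralog NR1D1, and CRY2 and PER3 lay side by side. The length used joins all annotated exons of a gene, so the order depends on the annotation. DBP, last by this measure with 6.49 kb, averaged 13.7 CPM, above NR1D1 (10.3 CPM) and CIART (6.93 CPM). BMAL1, listed as ARNTL, the partner of CLOCK, averaged 2.10 CPM per kb. These levels rest on 11 counts for CIART in its lowest library and on 1307 for CLOCK in its lowest, and a floor of 3 counts corresponds to 0.307 to 0.436 CPM per library. The floor covers counting error only, since PCR copies are not separated from molecules.

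CLOCK (chr4:55427903-55546909, GRCh38, minus strand), the histone acetyltransferase partner of BMAL1, was the steadiest of the 10 genes. Its libraries ran from 159 CPM (day 38) to 206 CPM (day 23), with an SD within a day, pooled over the 5 days, of 0.09 on the log2 scale. Its day means lay between 171 CPM at day 38 and 201 CPM (day 31), a ratio of 1.18, and no comparison called it.

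PER3 (chr1:7784291-7845177, plus strand), one of the 3 PERIOD repressors, was the one of the 10 whose libraries did not overlap between days 38 and 45 and the cAMP days, against 24.0% of all genes tested. Its libraries measured 46.3 and 61.7 CPM (day 16), 28.8 and 31.4 CPM (day 23), 42.6 and 39.6 CPM (day 31), 83.4 and 79.6 CPM (day 38), and 58.8 and 68.6 CPM (day 45). Both day 23 libraries were below all others, both day 38 libraries were above all others. PER3 fell by 0.84 ± 0.21 (SE, log2) from day 16 to day 23 (edgeR, BH-adjusted p = 0.004978), and rose by 0.99 ± 0.20 from day 31 to day 38 (edgeR, BH-adjusted p = 0.0005027). Over the 2 TSH and dexamethasone days it was 2.05-fold its level in the cAMP days, a log2 change of 1.03 with a 95% interval of 0.74 to 1.33 (edgeR, BH-adjusted p = 5.543e-07). The fall at day 23 was no longer called without day 16 replicate 2 or without day 23 replicate 1, where the log2 change was at its weakest -0.62, while the rise at day 38 and the difference between the media were called in all 15 alternatives. PER3 shares 868 exon bases, 10.7% of its exons, with UTS2 on the opposite strand, and the strand setting of the counting is not given in the sources used here. UTS2 was at most 9.36 CPM in a library and averaged 0.557 CPM at day 38, where PER3 was highest.

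PER2 (chr2:238244044-238290102, minus strand), a second PERIOD repressor, measured 70.5 and 48.0 CPM (day 16), 33.8 and 52.9 CPM (day 23), 66.4 and 72.5 CPM (day 31), 52.0 and 55.3 CPM (day 38), and 90.9 and 78.0 CPM (day 45). Its day 45 libraries were the highest of all 10, and its day 16 and day 23 libraries overlapped. It rose by 0.65 ± 0.21 (SE, log2) from day 38 to day 45 (edgeR, BH-adjusted p = 0.03742), a call that was lost on leaving out any one library of days 31, 38 or 45, with adjusted p up to 0.2457. From day 23 to day 31 the log2 difference was 0.68 and was not called (edgeR, BH-adjusted p = 0.09574). From day 31 to day 38 the log2 differences were -0.37 for PER2, which was not called, and 0.99 for PER3.

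CRY1 (chr12:106991364-107093549, minus strand), a CRYPTOCHROME repressor that binds the CLOCK complex directly, gave the largest rise that was called among the 10 genes. Its libraries measured 33.9 and 46.7 CPM (day 16), 50.4 and 47.8 CPM (day 23), 51.8 and 46.0 CPM (day 31), 43.7 and 36.9 CPM (day 38), and 118 and 133 CPM (day 45). The 8 libraries of days 16 to 38 lay between 33.9 and 51.8 CPM, and both day 45 libraries were above them. CRY1 was 3.12-fold higher at day 45 than at day 38, a log2 change of 1.64 with a 95% interval of 1.24 to 2.04 (edgeR, BH-adjusted p = 2.041e-07), and the call was kept in all 15 alternatives. The average over days 38 and 45 was also above that of the cAMP days, by 0.54 on the log2 scale (edgeR, BH-adjusted p = 0.002711), but both day 38 libraries were below all 4 libraries of the cAMP days, and both day 45 libraries were above them.

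CRY2 (chr11:45847118-45883248, plus strand), the second CRYPTOCHROME, went the other way. It measured 49.2 and 40.9 CPM (day 23), 47.0 and 55.9 CPM (day 31), 41.0 and 37.4 CPM (day 38), and 33.0 and 26.3 CPM (day 45), after 54.0 and 33.9 CPM (day 16). Both day 45 libraries were the lowest of all, and the day 16 libraries spanned most of the range of the other days. Days 38 and 45 were 0.50 ± 0.17 (SE, log2) below days 23 and 31 (edgeR, BH-adjusted p = 0.02257), and the call was lost without day 23 replicate 1, day 31 replicate 2, day 38 replicate 2 or day 45 replicate 2, with adjusted p up to 0.09847. A day 38 library, at 41.0 CPM, was above the lower day 23 library, at 40.9 CPM. At day 45 CRY1 and CRY2 averaged 126 ± 10.7 and 29.6 ± 4.69 CPM (SD, n = 2), against 48.9 ± 4.12 and 51.4 ± 6.27 CPM at day 31.

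NR1D2 (chr3:23945286-23980617, plus strand), which encodes the heme-binding nuclear receptor REV-ERBβ, was highest before cAMP was given. Its libraries measured 135 and 165 CPM (day 16), 99.1 and 95.5 CPM (day 23), 137 and 116 CPM (day 31), 103 and 103 CPM (day 38), and 80.9 and 87.2 CPM (day 45). Both day 45 libraries were the lowest, and the libraries of days 16 and 31 overlapped. NR1D2 fell by 0.62 ± 0.15 (SE, log2) from day 16 to day 23 (edgeR, BH-adjusted p = 0.005522), and the average of days 23 and 31 was 0.44 lower than day 16 (edgeR, BH-adjusted p = 0.01827). The first call was lost without day 16 replicate 2 or day 23 replicate 2, where the adjusted p was up to 0.07971, and the second without either of these or day 31 replicate 2, where it was up to 0.2695. NR1D1 (chr17:40092793-40100589, minus strand), which encodes REV-ERBα, measured 15.6 and 6.28 CPM (day 16), 7.98 and 6.75 CPM (day 23), 8.50 and 12.5 CPM (day 31), 13 and 8.38 CPM (day 38), and 7.98 and 15.8 CPM (day 45). The libraries of day 16 and of day 45 spanned nearly the whole range, and no comparison called NR1D1. Its difference between days 38 and 45 and the cAMP days was 0.36 on the log2 scale with a 95% interval of -0.32 to 1.05, which leaves room for a doubling. NR1D1 shares 473 exon bases, 18.0% of its exons, with THRA on the opposite strand, and THRA ran from 19.9 to 35.3 CPM.

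CIART (chr1:150282543-150287093, plus strand) was among the lowest of the 10 genes and varied most. It measured 14.2 and 8.62 CPM (day 16), 2.44 and 3.89 CPM (day 23), 6.24 and 8.15 CPM (day 31), 10.4 and 9.43 CPM (day 38), and 1.60 and 4.37 CPM (day 45). The libraries of days 23 and 45 lay below all those of days 16, 31 and 38. It fell by 1.85 ± 0.58 (SE, log2) from day 16 to day 23 (edgeR, BH-adjusted p = 0.03179), and the call was lost without day 16 replicate 1 or without any one library of days 23 or 38, with adjusted p up to 0.2247. From day 38 to day 45 the log2 difference was -1.70 and just missed the threshold (edgeR, BH-adjusted p = 0.05135), and 8 of the 15 alternatives called it, DESeq2 among them.

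DBP (chr19:48630030-48637379, minus strand) and TEF (chr22:41367333-41399326, plus strand) were not called in any comparison. DBP ran from 8.35 to 17.7 CPM, and its libraries at day 23 were 14.4 and 8.35 CPM. Its log2 difference from the cAMP days to days 38 and 45 was -0.01. SPHK2, which shares 661 exon bases, 10.2% of the exons of DBP, on the opposite strand, fell by 1.33 in that comparison (edgeR, BH-adjusted p = 0.001087), and without a strand setting their shared reads cannot be told apart. TEF ran from 11.3 to 24.9 CPM and was highest in both day 16 libraries, at 23.2 and 24.9 CPM. Its difference from day 16 to day 23 was -0.79 on the log2 scale (edgeR, BH-adjusted p = 0.1548).

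The steps between days were also read across the 10 genes. From day 16 to day 23, 3 of 10 were called (PER3, NR1D2 and CIART), all lower, each a call that was lost on leaving out 1 library, against 10.9% of all genes tested, and the median log2 change was -0.51, beside -0.02 over all genes. From day 31 to day 38, when cAMP was replaced by TSH and dexamethasone, PER3 was the 1 gene called, against 15.0% of all genes, and the median was -0.18, beside 0.00. From day 38 to day 45, 2 were called (CRY1 and PER2), both higher, against 11.2%, and the median was -0.32, beside -0.02. The comparisons share the libraries of the days between them, so a high or low day enters both.

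From day 23 to day 31, both labelled cAMP, edgeR called 0 of 10, against 2.25% of all genes, and 4 had an unadjusted p under 0.05. DESeq2 also called 0. In 9 of 10 genes the log2 difference was above 0, with CRY1 at -0.01, and the median was 0.42, beside 0.00 over all genes. Taken as a phase, the 2 cAMP days against day 16 gave 2 calls (PER3 and NR1D2), both lower, against 15.5%. Days 38 and 45 against the 2 cAMP days gave 3 calls (PER3 and CRY1 higher, CRY2 lower), against 29.9%, of which 16.1% of all genes were higher and 13.7% lower. The shares among the clock genes were thus close to that of all genes in the comparison of the media, and the medians were 0.09 and 0.02 on the log2 scale.

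**Figure D2:**
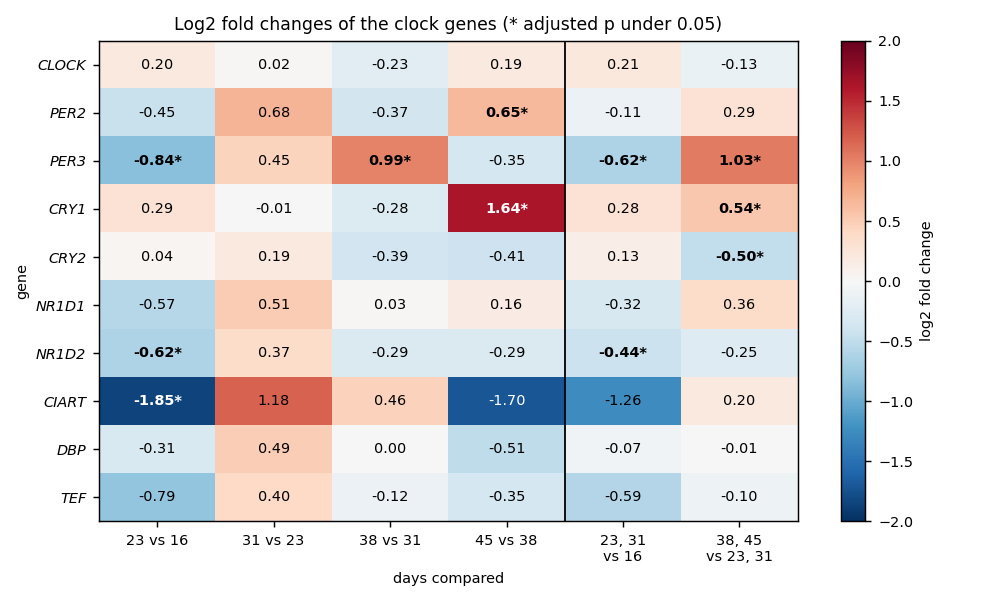
Log2 fold changes of the 10 clock genes (rows) in the 4 steps between neighbouring days and in the 2 comparisons of media (columns, split by the line), with an asterisk where edgeR's BH-adjusted p was under the threshold of 0.05. The deepest red is CRY1 at day 45 against day 38 (1.64), and PER3 turns from -0.84 at day 23 to 0.99 at day 38.

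The 2 libraries of a day can differ in the clock genes. At day 16, replicate 1 was above replicate 2 for NR1D1 (2.48-fold), CIART (1.65-fold), CRY2 (1.60-fold) and DBP (1.60-fold), and below it for PER3 (0.750-fold) and CRY1 (0.725-fold). Among the other core clock genes counted in both day 16 libraries, replicate 1 over replicate 2 ran from 0.4-fold (BHLHE41) to 1.54-fold (PER1). ARNTL was at 0.727-fold, RORA at 1.03-fold and NFIL3 at 1.04-fold. HLF had 0 counts in day 16 replicate 1 and 30 in replicate 2. At day 45 the order was turned for NR1D1 (0.504-fold) and CIART (0.366-fold). Over 1.5-fold apart were 4, 3, 1, 1 and 2 of the 10 genes at days 16, 23, 31, 38 and 45, against 37.4, 33.5, 35.6, 25.7 and 35.1% of all genes tested. Here too the sets were not matched for expression level.

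**Figure D3:**
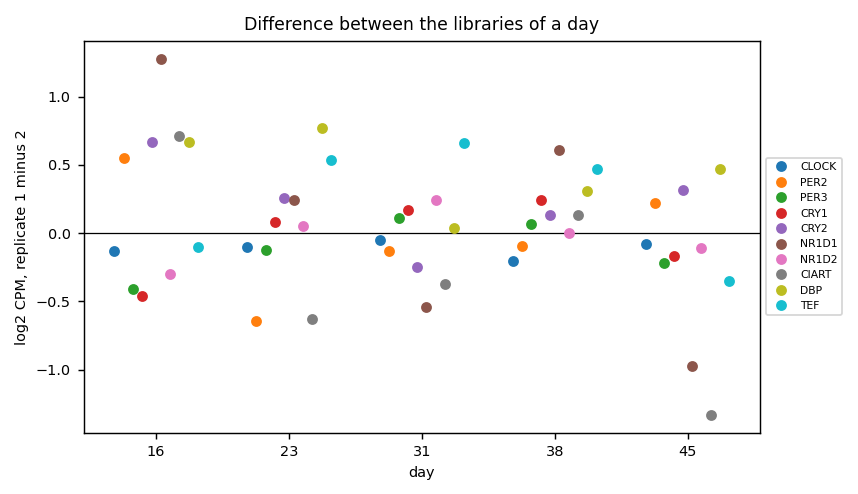
Difference between the libraries of each day (log2 CPM of replicate 1 minus replicate 2, vertical axis) for the 10 clock genes (colours), by day. NR1D1 is at 1.28 on day 16 and -0.97 on day 45, and the points of day 38 lie closest together.

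The rest of the clock was followed in 34 further genes, of which 31 could be tested. In the comparison of days 38 and 45 with the cAMP days, 16 of 31 were called, against 29.9% of all genes tested, 14 higher, against 16.1%, and 2 lower, against 13.7%, with a median log2 change of 0.27, beside 0.02 over all genes. BHLHE41, whose libraries included values of 0, lies above that median also at its lower bound. Read against the same shares of all genes, 5 of 11 other core factors were called, all higher, among them NPAS2, BHLHE40, BHLHE41 and NFIL3. None of the 7 kinases and ubiquitin ligases that were tested was called by edgeR there, with 3 at an unadjusted p under 0.05, and of 13 output and accessory genes 9 were higher and 2 lower.

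BHLHE40 (DEC1), a repressor that competes for E-boxes, measured 32.6 and 28.3 CPM (day 16), 31.6 and 27.8 CPM (day 23), 98.9 and 93.9 CPM (day 31), 267 and 258 CPM (day 38), and 82.5 and 77.9 CPM (day 45). The day 38 libraries stood above all others. It rose by 1.70 from day 23 to day 31 (edgeR, BH-adjusted p = 1.239e-08) and by 1.45 from day 31 to day 38 (edgeR, BH-adjusted p = 8.422e-09), and fell by 1.71 from day 38 to day 45 (edgeR, BH-adjusted p = 6.387e-10), all on the log2 scale and called in all 15 alternatives. Its paralog BHLHE41 (DEC2) measured 2.66 and 6.65 CPM at day 16, at least 13.8-fold above day 23, where both libraries had 0 counts. It measured 10.9 and 9.78 CPM (day 38), at least 30.6-fold higher than at day 23, both against a floor of 3 counts per library. At day 45 BHLHE41 stayed high, at 16.7 and 15.1 CPM, where BHLHE40 had come down.

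NFIL3, which represses at the D-box that DBP and TEF activate, measured 49.5 and 47.7 CPM (day 16), 35.4 and 28.6 CPM (day 23), 40.9 and 33.2 CPM (day 31), 74.7 and 64.3 CPM (day 38), and 81.0 and 74.8 CPM (day 45). The groups of cAMP and of TSH and dexamethasone libraries did not overlap, and the log2 change was 1.09 ± 0.15 (SE; edgeR, BH-adjusted p = 2.172e-07). NPAS2, a paralog of CLOCK, had 0 counts at day 16 and 7.40 and 10.6 CPM (day 45), at least 24.0-fold higher against a floor of 3 counts per library. RORA, an activator of BMAL1, fell by 0.86 from day 38 to day 45 (edgeR, BH-adjusted p = 4.026e-05), from 246 and 255 CPM to 118 and 157 CPM. BMAL1 itself, between 9.13 and 27.4 CPM, was not called in any comparison. PER1, between 44.8 and 132 CPM, was called for a difference between any of the days (edgeR, BH-adjusted p = 0.009896) and in none of the 6 comparisons with a direction.

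Among the output genes, NAMPT, the rate-limiting enzyme of NAD salvage, measured 127 and 123 CPM (day 16), 67.5 and 66.8 CPM (day 23), 90.7 and 86.7 CPM (day 31), 264 and 262 CPM (day 38), and 368 and 367 CPM (day 45). It fell by 0.89 from day 16 to day 23 (edgeR, BH-adjusted p = 1.173e-05). The libraries of days 38 and 45 did not overlap those of the cAMP days, and the log2 change between the media was 2.01 ± 0.10 (SE; edgeR, BH-adjusted p = 2.912e-18). Of its 50-base stretches, 7.1% also occur in other genes, the pseudogene NAMPTP1 among them, so its counts carry that uncertainty. NOCT, an NADP(H) phosphatase also called nocturnin, rose by 1.75 (edgeR, BH-adjusted p = 4.993e-07), and ALAS1, which starts heme synthesis, by 1.04 (edgeR, BH-adjusted p = 1.375e-06). Like CRY1, ALAS1 was highest at day 45, with 114 and 131 CPM. Its day 38 libraries, at 46.9 and 33.4 CPM, overlapped those of day 31, at 39.5 and 37.4 CPM, and that step was not called. TIMELESS, a replication fork factor, fell by 1.31 (edgeR, BH-adjusted p = 6.964e-06). CSNK1E and SIK1 were at or near 0 counts, and both share exon sequence with a second annotated gene, so their counts are uncertain.

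**Figure D4:**
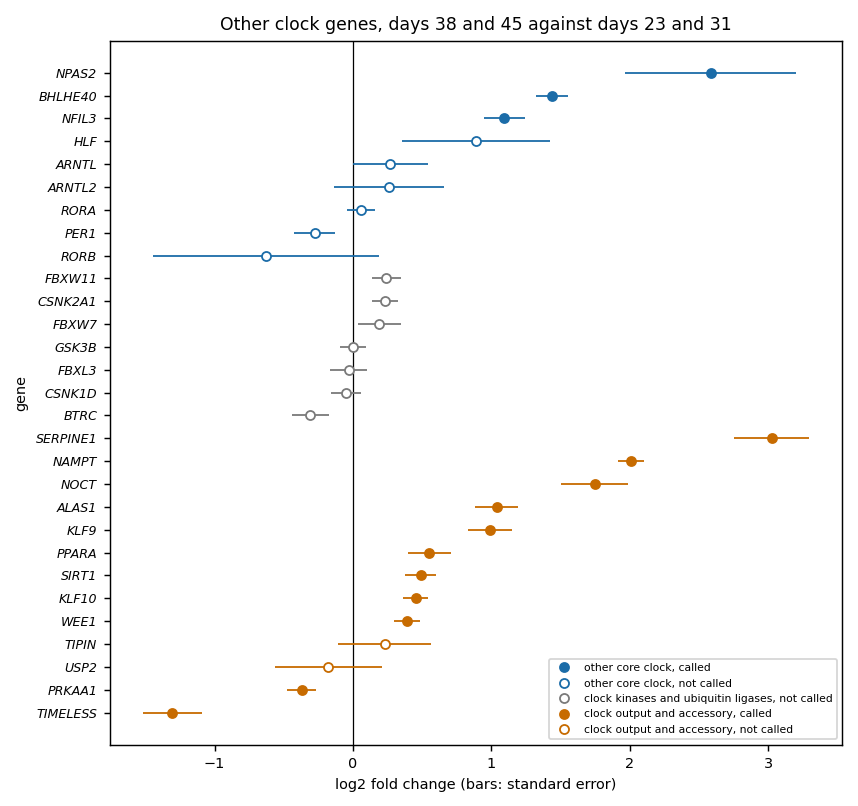
Log2 fold changes (points) with standard errors (bars) of 29 further clock genes at days 38 and 45 against days 23 and 31, coloured by list, with filled points where the BH-adjusted p was under 0.05. NAMPT lies at 2.01 and TIMELESS at -1.31, and BHLHE41 is left out because its libraries include counts of 0.

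Known targets of the added agents were read from 2 further lists. Of 10 glucocorticoid targets, 9 were called between days 38 and 45 and the cAMP days, against 29.9% of all genes, 8 higher and 1 lower, with FKBP5, a chaperone of the receptor, up by 2.03 (edgeR, BH-adjusted p = 4.284e-12) and TSC22D3 (GILZ) up by 1.23 (edgeR, BH-adjusted p = 3.089e-10). KLF9, which is in that list and in the output list, rose by 0.99 (edgeR, BH-adjusted p = 7.484e-06), and PER1, a glucocorticoid target in many cells, was not called. Between days 23 and 31, 3 of the 10 glucocorticoid targets (SGK1, NFKBIA and ERRFI1) were called, all higher, against 2.25% of all genes. Of 10 cAMP targets tested, 7 were called from day 16 to day 23, against 10.9% of all genes, 2 of them higher, PDE4B (3.01 on the log2 scale) and PDE4D, and 5 lower, NR4A1 (-1.19), NR4A2 (-3.99), NR4A3 (-2.94), FOSB (-0.90) and PDE10A (-0.85). Of the last group, NR4A1 to NR4A3 and FOSB are immediate early genes and PDE10A is a phosphodiesterase. Between days 38 and 45 and the cAMP days, 6 of the 10 cAMP targets were called, against 29.9% of all genes, 5 higher (NR4A2, NR4A3, PDE4B, PDE10A and PPARGC1A) and 1 lower (PDE4D), with a median log2 change of 0.60, beside 0.02 over all genes.

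Marker genes of several cell types were summed per library beside these results. The 15 thyroid markers, led by TG, summed to 2530 to 2990 CPM in the 6 libraries up to day 31 and to 8500 to 11200 CPM in the 4 libraries of days 38 and 45. Of the 15, 8 were higher in the comparison of the media, against 16.1% of all genes tested. In the same comparison 3 were lower (NKX2-1, HHEX and IYD), against 13.7%. TG averaged 206 CPM at day 31 and 5210 CPM at day 38, and PAX8, a defining thyroid factor, averaged 503 and 514 CPM at these days and was not called. The 9 mesenchymal markers, led by COL3A1, summed to 914 and 1130 CPM (day 16), 1510 to 1770 CPM in the cAMP days and 3630 to 4540 CPM afterwards. In the comparison of the media 6 of 9 were higher, against 16.1% of all genes, and 1 was lower, against 13.7%. PER3 was low in the cAMP days and high afterwards, so it moved with both sums in that comparison. At day 16, however, PER3 averaged 54.0 CPM, above 30.1 CPM (day 23) and 41.1 CPM (day 31), while the mesenchymal sum was below that of the cAMP days. The 7 airway markers, led by SFTPB with SFTPC at no more than 3 counts, summed to 25.6 to 552 CPM and peaked at day 31. SFTPB alone averaged 500 CPM at that day. Of the 6 tested, 4 were higher between the media (SCGB3A2, TP63, KRT5 and MUC5AC), against 16.1% of all genes. The other 2 were lower (SFTPB and FOXJ1), against 13.7%. Neural markers, led by MAP2, summed to at most 170 CPM, endothelial markers, led by KDR, to at most 54.6 CPM, and blood markers, led by CD68 with HBB at 0, to at most 41.8 CPM. The 7 cell cycle genes, led by MKI67, summed to 312 to 658 CPM. The part of these marker levels in the clock gene results was not tested.

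The genes whose log2 CPM followed a clock gene most closely over the 10 libraries were searched among 13077 genes. For PER3 these were KATNBL1 (r = 0.975), FKBP9 (r = 0.974) and THAP9 (r = 0.972). For NR1D1 they were PROSER3 (r = 0.929), PFDN2 (r = 0.895) and PRR7 (r = 0.884), and for CLOCK they were ADAT1 (r = 0.959), PXMP4 (r = 0.948) and DAGLB (r = 0.934). FKBP9 measured 139 and 129 CPM at day 38 and 45.6 and 47.8 CPM (day 23), the same days at which PER3 was highest and lowest. The libraries of a day share their culture and day, and the best of many genes is high by choice, so these are descriptions.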

How the data were processed

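The authors trimmed paired-end reads of NuGen Ovation Solo libraries with Trimmomatic, aligned them with HISAT2 to GRCh38 and counted them with HTSeq (Ensembl GRCh38.p13); the raw counts per gene symbol, deposited unnormalized, were used as they stand. Versions and strand setting are not given in the sources used here. The clock genes and all lists were chosen with earlier results of these data known. The 21014 genes that reached 5 counts in 2 or more libraries were fitted with 1 mean per day over all 10 libraries (R 4.3.3, edgeR 4.0.16 glmQLFit and glmQLFTest, limma 3.58.1, TMM), leaving 5 residual degrees of freedom, and p-values were Benjamini-Hochberg adjusted (threshold 0.05). The code was tested on simulated data. Replicates of a day differed by more than sampling noise (chi-square per degree of freedom 8.38 to 13.7), and each of the 2 biological replicates counted once. The 15 alternatives were DESeq2 1.42.0, no TMM factors, no low-count filter, only the days compared, a replicate block, and leaving out each library. Genes named beside the 10 were members of fixed lists, called or not, overlapping neighbours, and the 3 most correlated genes. Positions and exon lengths came from GENCODE 44, promoters from RefSeq. One gene of the lists is not reported here by name.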

Additional observations from a re-analysis of the deposited data

How the results depend on the processing

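Of the 11 calls among the 10 clock genes in the 6 comparisons with a direction, 4 were kept in all 15 alternatives (PER3 from day 31 to 38 and between the media, CRY1 from day 38 to 45 and between the media), and 7 were lost in at least 1. Of 49 values that were not called, 9 were called in at least 1. The further clock genes kept 27 of 43 calls, with 0 changes of sign. CIART rests on 11 to 112 counts per library, and with 2 libraries a day 1 library can decide a call.

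Leaving out 1 library moved the number of clock genes called between 1 and 3 (day 23 against 16), 0 and 1 (31 against 23), 1 and 3 (45 against 38), 0 and 3 (days 23 and 31 against 16), 2 and 4 (days 38 and 45 against 23 and 31) and 5 and 6 (any day). Without the low-count filter, and with the replicate block, 1 gene (PER2) was called from day 23 to 31 in place of 0. Without TMM factors 3 were called from day 31 to 38 in place of 1, and 5 between the media in place of 3, with NR1D2 and CLOCK added as lower; the median of all genes then moved by -0.20 and -0.15 on the log2 scale, and the share of higher calls among all genes went from 58.5 to 33.3% and from 54.0 to 36.6%. Same-numbered replicates of different days did not deviate together over all genes (r from -0.03 to 0.02). This shows no strong shared shift, but it cannot exclude that the numbers pair the samples. The block moved 1 other count by over 1.5 times, that of the further clock genes called from day 16 to 23, from 3 to 7. That count was 6 without the low-count filter, and from day 23 to 31 DESeq2 called 3 further clock genes in place of 1.

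None of the values that changed sign was called in the fit reported. Without TMM factors, CRY1 from day 23 to 31 was 0.019, NR1D1 from day 31 to 38 was -0.194 and DBP from day 31 to 38 was -0.219. DBP from day 31 to 38 was -0.025 with DESeq2, -0.005 without the filter, -0.011 with only the days compared and -0.017 with the replicate block. On leaving out 1 library, log2 values ran as follows. From day 16 to 23 CRY2 ran from -0.261 to 0.426, NR1D1 from -1.081 to 0.243 and DBP from -0.755 to 0.084. From day 23 to 31 CRY1 ran from -0.096 to 0.068 and CLOCK from -0.034 to 0.067. From day 31 to 38 NR1D1 ran from -0.319 to 0.322, DBP from -0.166 to 0.152 and TEF from -0.423 to 0.250. From day 38 to 45 NR1D1 ran from -0.418 to 0.568. From day 16 to the cAMP days PER2 ran from -0.362 to 0.203, CRY2 from -0.167 to 0.518, NR1D1 from -0.829 to 0.493 and DBP from -0.367 to 0.324. Between the media DBP ran from -0.181 to 0.212, CIART from -0.258 to 0.463 and TEF from -0.258 to 0.090.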
